A study of Mus musculus with 10 samples.

Results

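The machinery that shortens, decaps and degrades messenger RNA was followed as 40 genes of mouse tracheal epithelial organoids, taken by symbol from a count table of 22457 genes. They are 11 subunits of the CCR4-NOT deadenylase, 5 BTG and TOB adaptors, 3 further deadenylase genes (Pan2, Pan3 and Parn), 7 decapping factors, 2 exonucleases, 7 factors of nonsense-mediated decay, 2 poly(A)-binding proteins and 3 proteins that bind AU-rich elements. All 40 had a row under the symbol used here, and all 40 passed the filter on low counts. The lowest count of any of them in any library was 62, and 38 had at least 100 counts in all 6 libraries.

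Organoids were grown in Matrigel from tracheal basal cells, the stem cells of the airway lining, and harvested on day 14. The group labelled Ctrl came from control mice and the group labelled M3-CKO from mice with Mettl3 knocked out, by the title of the series, with 3 RNA-seq libraries each. Mettl3 encodes the catalytic part of the methyltransferase that places N6-methyladenosine (m6A) in messenger RNA. Where 3 values are given for a group, they are in the order of replicates 1 to 3. The labels give 1 culture protocol for both groups, in a medium with insulin, transferrin, cholera toxin, epidermal growth factor, bovine pituitary extract, all-trans retinoic acid, the TGF-beta receptor inhibitor A83-01, the BMP receptor inhibitor DMH-1 and serum, with the ROCK inhibitor Y-27632 for the first 3 days. The labels also describe a differentiation medium and do not say which libraries saw it. The Cre driver, the deleted part of Mettl3, the strain and the age of the mice are not stated in the labels, and the replicates could be separate mice, separate cultures or repeat libraries of 1 culture. The p-values therefore cover only how far these libraries spread, which may be technical variation. The 4 m6A immunoprecipitation and input libraries were not analysed here.

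Most cytoplasmic messenger RNA is degraded from its tail. PAN2-PAN3 and CCR4-NOT remove the poly(A) tail, the cap is then cut off by DCP2 with its partners, and XRN1 digests the body from the 5′ end. RNA-binding proteins choose the targets: ZFP36 proteins bring CCR4-NOT to AU-rich elements, UPF1 starts nonsense-mediated decay of transcripts with premature stop codons, and the m6A reader YTHDF2 recruits CCR4-NOT to methylated transcripts. The comparison asks whether the levels of the transcripts that encode this machinery differ when organoids form from basal cells with the Mettl3 knockout.

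Total counts ran from 8906375 to 10485922 per library. Mettl3 itself stood at 14.9, 16.98 and 18.8 CPM in Ctrl against 11.1, 10.2 and 9.84 CPM in M3-CKO, and the groups did not overlap. Its log2 fold change of -0.70 (SE 0.21, edgeR adjusted p = 0.12) did not pass the test. A two-sided exact permutation test gave p = 0.1, below which a design of 3 against 3 cannot go. Counts over the whole gene include any reads from exons that the knockout leaves in place. M3-CKO replicate 3 stood apart from the other libraries of its group: its Pearson r across tested genes of log2 CPM (CPM being counts scaled to a common library size) was 0.926 and 0.914 with M3-CKO replicates 1 and 2, which reached 0.988 with each other, while pairs of Ctrl libraries reached 0.971 to 0.980. Since genes share their library, r is a description here and carries no test. Where leaving this library out changed the call of a gene whose log2 fold change is given here, the value without it is given as well. For Mettl3 that value was -0.67 (edgeR adjusted p = 0.043). Airway epithelial markers were present (15 of 15 with a row, 4578 to 5036 CPM in sum in Ctrl and 3750.0 to 4225 in M3-CKO). By edgeR 3 of them fell (the basal keratins Krt5, Krt14 and Krt15) and 1 rose (the club cell secretoglobin Scgb1a1), against 1.16% and 1.74% of all genes. Krt5 had a log2 fold change of -1.82 (SE 0.26, edgeR adjusted p = 0.024) and Scgb1a1 a log2 fold change of 5.23 (SE 0.89, edgeR adjusted p = 0.033). Scgb1a1 was highest in M3-CKO replicate 3, at 358 CPM against 83.1 CPM and 37.5 CPM in replicates 1 and 2, and its value without that library was 3.83 (edgeR adjusted p = 6.7e-04). Limma-voom did not call it. The part of this difference in the decay genes was not tested. Of 8 immune markers, 4 had a row and summed to 499 to 581 CPM in Ctrl and 720 to 1094 in M3-CKO, most of it Cd14 and the rest largely Cd68, while the pan-leukocyte marker Ptprc was at 0 in 5 of 6 libraries and at 0.211 CPM in Ctrl replicate 2. The 4 mesenchymal markers with a row summed to 3.38 to 12.7 CPM in Ctrl and 1.35 to 3.86 in M3-CKO, and the 3 endothelial and 2 erythrocyte markers with a row stayed at 1.14 CPM or less in every library.

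No gene of the decay machinery passed the test with all 6 libraries, and most differences were small. Of the 40 genes, edgeR called 0 at an adjusted p under 0.05, against 2.91% of the 13528 genes tested (393 genes, 1.74% higher and 1.16% lower). At an unadjusted p under 0.05 there were 7 of the 40 (17.5%), against 20.5% of all genes, and the groups did not overlap for 11 of the 40 (27.5%), against 27.1% of all genes. The 40 log2 fold changes (M3-CKO over Ctrl) split into 20 positive and 20 negative, with a median of -0.02 against 0.02 over all genes. Their median size was 0.23 against 0.31 over all genes, and 1 of the 40, Zfp36, passed 2-fold, against 11.3% of all genes. The 95% interval of the log2 fold change lay within -1 and 1 for 32 genes, so a 2-fold change lay outside the interval for these. It reached -1 for Upf3a, Zfp36, Zfp36l1 and Zfp36l2, and 1 for Btg1, Btg3, Dcp1b, Dcp2 and Zfp36l2. Limma-voom also called 0 of the 40 (2.23% of all genes), and DESeq2 called 2 (7.54% of all genes): Btg1, higher, and Zfp36, lower.

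**Figure D1:**
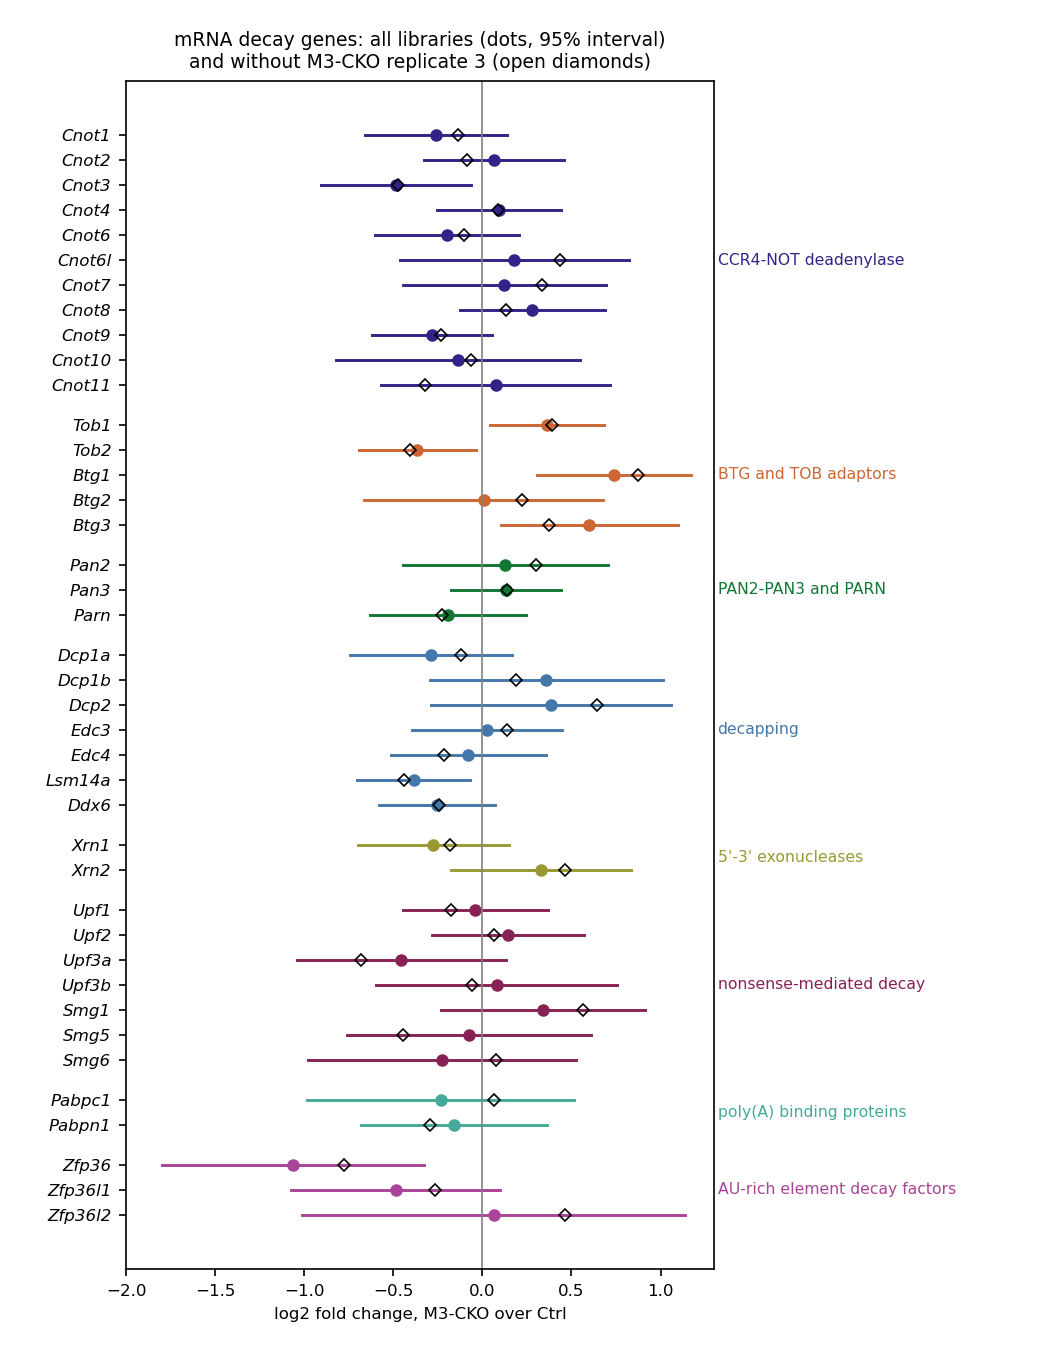
The horizontal axis is the log2 fold change of M3-CKO over Ctrl from edgeR for the 40 genes, grouped by role. Dots with lines are the estimate and its 95% interval from all 6 libraries, and open diamonds are the estimate without M3-CKO replicate 3. Of the 40 intervals 7 lie on one side of 0, and Zfp36 lies farthest from it at -1.06.

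Leaving out M3-CKO replicate 3 brought 8 of the 40 genes past the threshold, where 25.0% of the 13930 genes tested were called. Higher were Btg1, Dcp2, Smg1 and Tob1 (4 of 40, against 13.7% of all genes), and lower were Zfp36, Lsm14a, Tob2 and Upf3a (4 of 40, against 11.3%). This fit rests on the pair of M3-CKO replicates 1 and 2, which lie closer together than any Ctrl pair. Replicate 3 itself differed from the mean of the other M3-CKO libraries by over 0.5 on the log2 scale for 16 of the 40 genes, against 50.7% of all genes. It lay lower for 12 of these and higher for 4. The lower ones reached -1.92 for Zfp36l2, -1.20 for Smg6, -1.20 for Pabpc1 and -1.14 for Zfp36, and the higher ones 0.95 for Cnot11 and 0.89 for Smg5. At any size of difference, replicate 3 lay below both other M3-CKO libraries for 22 of the 40 and above both for 14. Over the 13528 genes tested with all libraries these counts were 5946 and 6137. No share over all genes was computed for the 12 and 4.

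**Figure D2:**
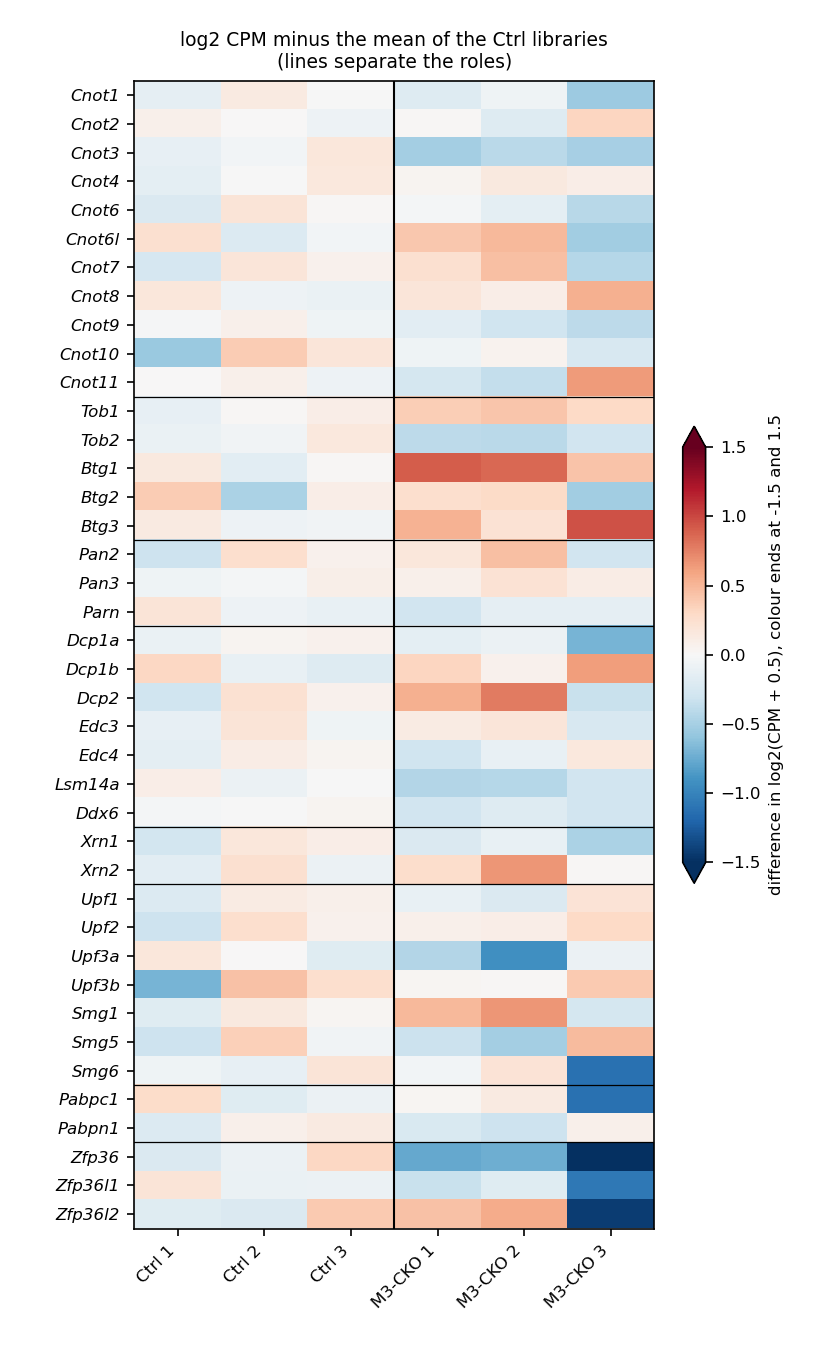
Each cell is the log2(CPM + 0.5) of 1 gene in 1 library minus the mean of the 3 Ctrl libraries, with the 40 genes in rows by role and the 6 libraries in columns. Btg1 and Tob1 are above 0 and Zfp36, Tob2, Lsm14a and Cnot3 below it in all 3 M3-CKO libraries, and the M3-CKO 3 column departs from its neighbours for Zfp36l2, Smg6 and Pabpc1.

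The BTG and TOB proteins bind the CNOT7 and CNOT8 nucleases and tie CCR4-NOT to target transcripts, and they are known as brakes on proliferation. Btg1 stood at 399, 323 and 366 CPM in Ctrl against 675, 657 and 484 CPM in M3-CKO. All 3 M3-CKO libraries lay above all Ctrl libraries, with replicate 3 the lowest of the M3-CKO libraries. The means were 362 ± 37.96 CPM in Ctrl and 605 ± 105 CPM in M3-CKO (SD, n = 3), a log2 fold change of 0.74 (SE 0.19, edgeR adjusted p = 0.078) with a 95% interval of 0.31 to 1.17. DESeq2 gave it an adjusted p of 0.019, and without M3-CKO replicate 3 the value was 0.87 (edgeR adjusted p = 0.0029). Btg2, its closest paralog and a known p53 target, stood at 424, 234 and 351 CPM in Ctrl against 388, 399.7 and 227 CPM in M3-CKO, so the groups overlapped. Its log2 fold change was 0.01 (SE 0.29, edgeR adjusted p = 0.99).

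Tob1 and Tob2, 2 paralogs that also bind poly(A)-binding protein, had log2 fold changes of opposite sign. Tob1 stood at 146, 159.8 and 169.8 CPM in Ctrl against 204, 212 and 195 CPM in M3-CKO. All M3-CKO libraries were higher than all Ctrl libraries, with a log2 fold change of 0.36 (SE 0.14, edgeR adjusted p = 0.19). Tob2 stood at 142, 147 and 169.9 CPM in Ctrl against 116, 115 and 125 CPM in M3-CKO, and here the M3-CKO libraries were the lower ones, again without overlap. Its value was -0.36 (SE 0.14, edgeR adjusted p = 0.20). Without M3-CKO replicate 3 both were called, at 0.39 (edgeR adjusted p = 0.040) for Tob1 and -0.41 (edgeR adjusted p = 0.042) for Tob2. Btg3, a further family member, stood at 43.6, 37.5 and 38.2 CPM in Ctrl against 57.04, 46.2 and 77.4 CPM in M3-CKO, again without overlap. M3-CKO replicate 3 was the highest library here, and the log2 fold change was 0.60 (SE 0.21, edgeR adjusted p = 0.17), or 0.37 (edgeR adjusted p = 0.11) without that library. In this family 4 of 5 genes had groups that did not overlap, 3 higher and 1 lower, where 13.7% and 13.5% of all genes did so in these directions.

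**Figure D3:**
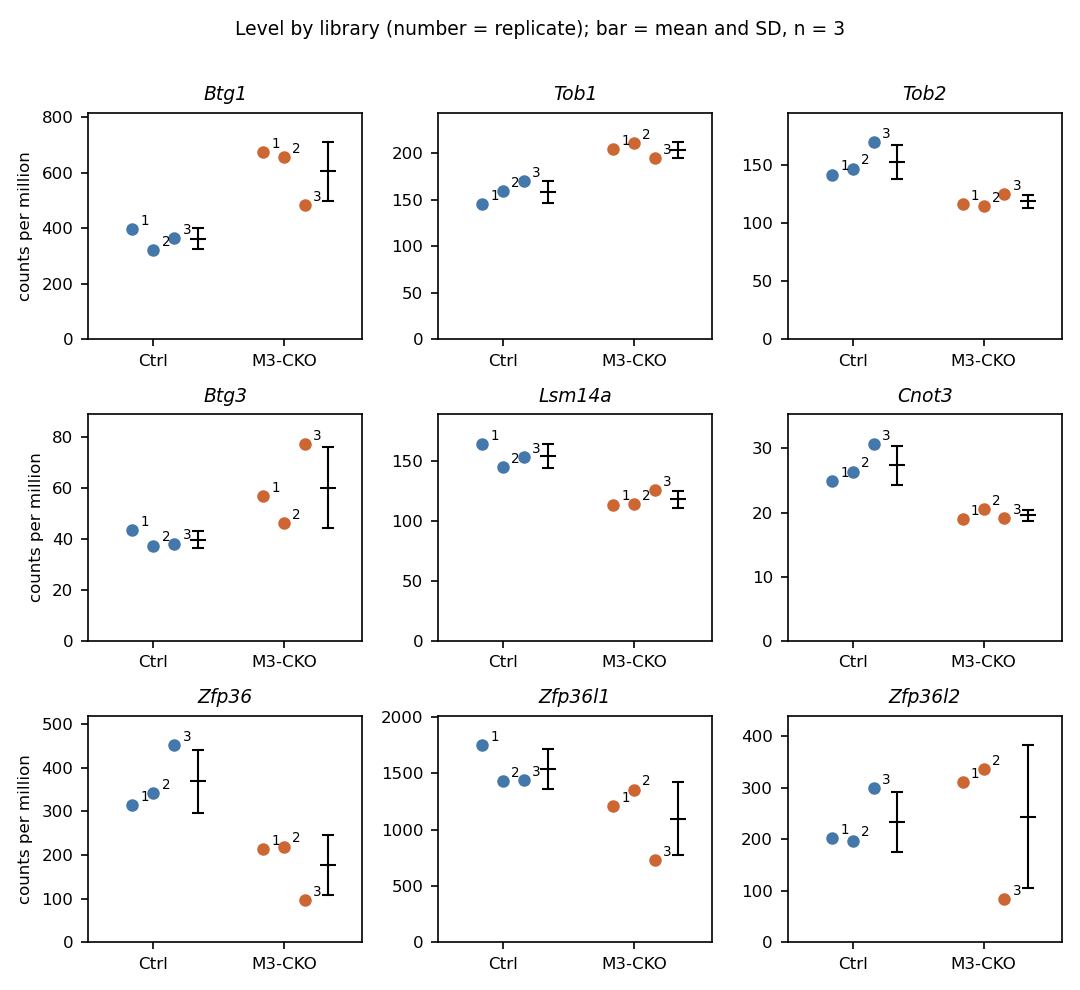
Dots are the CPM of 9 genes in each library, numbered by replicate, with Ctrl in blue and M3-CKO in orange, and bars are the mean and SD of 3 libraries. The groups do not overlap for 8 of them (Btg1, Tob1, Tob2, Btg3, Lsm14a, Cnot3, Zfp36 and Zfp36l1), and for Zfp36l2 M3-CKO replicate 3 at 84.7 CPM lies below all Ctrl libraries while replicates 1 and 2 lie above them.

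The promoters of these paralogs are shown because the members of each pair gave different log2 fold changes. The sequences are the 250 bases before the annotated start in RefSeq on build GRCm38.p6, matched by symbol, 5′ to 3′ on the strand of the gene. The count table was made on build mm39 and holds no coordinates. Capitals mark matches, on either strand, to a cAMP response element, an AP-1 site, a CCAAT box, a GC box, a TATA box, an EGR site or a CArG box, the element bound by serum response factor.
Btg1 promoter (chr10:96616751-96617000, + strand): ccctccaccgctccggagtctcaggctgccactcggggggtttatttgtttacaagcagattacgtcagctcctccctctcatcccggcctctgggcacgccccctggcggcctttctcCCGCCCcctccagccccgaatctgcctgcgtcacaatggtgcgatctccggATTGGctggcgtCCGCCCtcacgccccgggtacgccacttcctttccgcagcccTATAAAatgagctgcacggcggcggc
Btg2 promoter (chr1:134079156-134079405, - strand): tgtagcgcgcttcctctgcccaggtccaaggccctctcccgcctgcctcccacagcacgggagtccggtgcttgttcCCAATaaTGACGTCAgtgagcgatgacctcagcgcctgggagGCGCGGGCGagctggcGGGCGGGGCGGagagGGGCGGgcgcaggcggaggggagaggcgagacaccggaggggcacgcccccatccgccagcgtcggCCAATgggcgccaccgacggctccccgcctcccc
Tob1 promoter (chr11:94211204-94211453, + strand): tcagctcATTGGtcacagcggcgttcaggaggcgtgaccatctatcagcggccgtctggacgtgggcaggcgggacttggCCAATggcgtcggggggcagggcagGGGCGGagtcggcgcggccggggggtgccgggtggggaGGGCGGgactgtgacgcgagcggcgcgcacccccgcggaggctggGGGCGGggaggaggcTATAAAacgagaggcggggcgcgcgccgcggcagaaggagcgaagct
Tob2 promoter (chr15:81858327-81858576, - strand): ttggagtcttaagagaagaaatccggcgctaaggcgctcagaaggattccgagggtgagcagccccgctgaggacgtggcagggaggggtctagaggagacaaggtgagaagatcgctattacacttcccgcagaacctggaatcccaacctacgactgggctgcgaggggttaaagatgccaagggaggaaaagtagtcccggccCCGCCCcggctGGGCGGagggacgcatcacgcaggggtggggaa
The Btg1 window held 1 CCAAT box, 2 GC boxes and a TATA box, and the Btg2 window held a cAMP response element, an EGR site, 2 CCAAT boxes and 3 GC boxes, of which 2 overlap by 1 base. The Tob1 window held a TATA box, 2 CCAAT boxes and 3 GC boxes, while the Tob2 window held 2 GC boxes and none of the other motifs. The windows of the same length for all genes numbered 32851. A TATA box, searched as TATAAA, was found in 12.4% of these windows. The CCAAT box was searched by those letters alone and was found in 33.8%. A GC box, searched as the hexamer GGGCGG, was found in 32.7%. The cAMP response element was searched in its full palindromic form, TGACGTCA, and was found in 1.55%. The EGR site was searched as GCGNGGGCG, where N is any base, and was found in 4.70%. An AP-1 site, searched as TGANTCA, was found in 6.75% of windows, and a CArG box in 1.47%. Windows were found for 34 of the 40 genes. A match describes the letters in this window and not a bound site.

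Proteins of the ZFP36 family bind AU-rich elements in inflammatory and growth-related transcripts and bring CCR4-NOT to them. Zfp36 (tristetraprolin) had the largest log2 fold change in size of the 40 genes with all 6 libraries, whereas without M3-CKO replicate 3 that of Btg1 was larger (0.87 against -0.77). It stood at 314, 342 and 451 CPM in Ctrl against 213, 219 and 97.7 CPM in M3-CKO. The M3-CKO libraries were all lower than the Ctrl libraries, and replicate 3 was the lowest. The means were 369 ± 72.3 CPM in Ctrl and 177 ± 68.4 CPM in M3-CKO (SD, n = 3), a log2 fold change of -1.06 (SE 0.32, edgeR adjusted p = 0.12) with a 95% interval of -1.80 to -0.33. DESeq2 gave an adjusted p of 0.020, and without M3-CKO replicate 3 the value was -0.77 (edgeR adjusted p = 0.013). Zfp36l1 stood at 1747, 1428 and 1441 CPM in Ctrl against 1211, 1356 and 729.6 CPM in M3-CKO, also without overlap. Its log2 fold change was -0.49 (SE 0.25, edgeR adjusted p = 0.33), or -0.27 (edgeR adjusted p = 0.22) without M3-CKO replicate 3, whose level was the lowest of the 6. Zfp36l2 stood at 202, 197 and 299.9 CPM in Ctrl against 311, 336 and 84.7 CPM in M3-CKO. M3-CKO replicates 1 and 2 lay above all Ctrl libraries and replicate 3 below them, so the log2 fold change of 0.06 (SE 0.46, edgeR adjusted p = 0.96) became 0.47 (edgeR adjusted p = 0.10) without it.

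Zfp36 is itself an immediate early gene, one of those transcribed within minutes of a stimulus, and some other genes of that class fell in M3-CKO. Of 17 such genes tested, 2 fell by the edgeR test and 0 rose, against 1.16% and 1.74% of all genes. Of the 17, 12 had a negative log2 fold change, with a median of -0.73. At an unadjusted p under 0.05 there were 9, 8 lower and 1 higher (Ier3), against 20.5% of all genes. Without M3-CKO replicate 3, edgeR called 3 higher and 5 lower, against 13.7% and 11.3% of all genes, and the median was -0.46. The AP-1 gene Fosb fell from 142, 192 and 267 CPM in Ctrl to 10.4, 9.11 and 2.23 CPM in M3-CKO, with a log2 fold change of -4.79 (SE 0.54, edgeR adjusted p = 0.016). Ier2 fell from 280.3, 204 and 256 CPM to 115, 118 and 98.04 CPM, with a log2 fold change of -1.16 (SE 0.17, edgeR adjusted p = 0.028). The 20 listed genes summed to 4610 CPM, 3271 CPM and 4520 CPM in Ctrl and to 3529 CPM, 3681 CPM and 1838.0 CPM in M3-CKO. The sums of the groups overlapped, and M3-CKO replicate 3, the library with the least Zfp36, had the lowest sum. The part of the immediate early genes in the Zfp36 values was not tested. The Zfp36 promoter is shown because this gene passed 2-fold with all libraries, with the same motifs in capitals.
Zfp36 promoter (chr7:28379229-28379478, - strand): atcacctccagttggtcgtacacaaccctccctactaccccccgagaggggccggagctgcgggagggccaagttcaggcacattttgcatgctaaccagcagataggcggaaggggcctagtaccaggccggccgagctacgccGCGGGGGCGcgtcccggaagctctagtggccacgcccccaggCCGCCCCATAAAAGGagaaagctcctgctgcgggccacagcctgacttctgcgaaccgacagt
It held an EGR site, a GC box and a CArG box, the last 2 overlapping by 1 base. Among the 34 genes with a window it was the only one with a CArG box, and Btg2 and Cnot9 were the others with an EGR site.

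CCR4-NOT is built on the scaffold CNOT1, with CNOT7 or CNOT8 and CNOT6 or CNOT6L as nucleases. None of its 11 subunits was called with all libraries or without M3-CKO replicate 3, and their log2 fold changes ran from -0.48 to 0.28, with 1 at an unadjusted p under 0.05. That gene was Cnot3, which encodes a subunit of the NOT module. Cnot3 stood at 24.9, 26.4 and 30.7 CPM in Ctrl against 18.98, 20.5 and 19.2 CPM in M3-CKO. All M3-CKO libraries lay below all Ctrl libraries, with a log2 fold change of -0.48 (SE 0.18, edgeR adjusted p = 0.19), or -0.47 (edgeR adjusted p = 0.072) without M3-CKO replicate 3. Cnot9, an adaptor that docks RNA-binding proteins, also had groups that did not overlap, at 60.4, 64.7 and 58.4 CPM in Ctrl against 54.7, 49.5 and 46.5 CPM in M3-CKO. Its value was -0.28 (SE 0.15, edgeR adjusted p = 0.33). The scaffold Cnot1 stood at 90.2, 109 and 98.4 CPM in Ctrl against 86.1, 94.4 and 67.5 CPM in M3-CKO, where only M3-CKO replicates 1 and 3 lay below all Ctrl libraries. Its value was -0.26 (SE 0.17, edgeR adjusted p = 0.44).

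The nuclease subunits overlapped between the groups. Cnot7 stood at 67.7, 91.7 and 84.7 CPM in Ctrl against 95.5, 111 and 59.8 CPM in M3-CKO, lowest in M3-CKO replicate 3. Cnot8 stood at 63.6, 53.5 and 52.5 CPM in Ctrl against 64.1, 60.2 and 81.5 CPM in M3-CKO, highest in that library. Their log2 fold changes were 0.12 (SE 0.24, edgeR adjusted p = 0.82) and 0.28 (SE 0.18, edgeR adjusted p = 0.42). Cnot6l stood at 216, 158 and 176 CPM in Ctrl against 242, 255 and 126 CPM in M3-CKO, so M3-CKO replicates 1 and 2 lay above the Ctrl libraries and replicate 3 below them. Its value was 0.18 (SE 0.28, edgeR adjusted p = 0.77), or 0.43 (edgeR adjusted p = 0.064) without replicate 3. Its paralog Cnot6 ranged between 166 and 253 CPM, with a log2 fold change of -0.20.

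Of the remaining subunits, Cnot2, of the NOT module, ranged between 73.8 and 105 CPM (log2 fold change 0.06) and the ubiquitin ligase gene Cnot4 between 46.1 and 56.8 CPM (0.10). Cnot10 and Cnot11 encode an auxiliary module. Cnot10 ranged between 8.82 and 17.4 CPM (-0.14), lowest in Ctrl replicate 1. Cnot11 stood at 43.03, 45.05 and 40.5 CPM in Ctrl against 35.5, 33.2 and 66.7 CPM in M3-CKO, and the high value of M3-CKO replicate 3 turned its log2 fold change from -0.32 without that library to 0.08 with it. The groups did not overlap for 2 of the 11 subunits, Cnot3 and Cnot9, against 27.1% of all genes.

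PAN2-PAN3 trims long poly(A) tails before CCR4-NOT acts, and PARN is a deadenylase of small RNAs and some messages. Pan3 stood at 93.04, 95.7 and 104 CPM in Ctrl against 103, 113 and 105 CPM in M3-CKO, with overlapping groups and a log2 fold change of 0.13 (SE 0.13, edgeR adjusted p = 0.63). The nuclease gene Pan2 ranged between 24.3 and 41.6 CPM, lowest in Ctrl replicate 1 and M3-CKO replicate 3, with a log2 fold change of 0.13. Parn stood at 26.8, 22.2 and 21.7 CPM in Ctrl against 19.1, 21.4 and 21.3 CPM in M3-CKO. The groups did not overlap, though Ctrl replicate 3 and M3-CKO replicate 2 nearly met, and the log2 fold change of -0.19 (SE 0.19, edgeR adjusted p = 0.62) did not pass.

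The poly(A)-binding proteins coat the tail that these enzymes remove. Pabpc1, the main cytoplasmic one, stood at 828, 606 and 645 CPM in Ctrl against 700.2, 752 and 316 CPM in M3-CKO. M3-CKO replicate 3 was the lowest library and the others overlapped, so the log2 fold change of -0.23 (SE 0.32, edgeR adjusted p = 0.74) became 0.06 (edgeR adjusted p = 0.80) without it. This gene has processed copies in the genome, so its count is uncertain. Pabpn1, the nuclear protein that sets tail length, ranged between 12.8 and 17.6 CPM and had a log2 fold change of -0.16.

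Decapping joins the catalytic subunit DCP2 to its activators DCP1A, DCP1B, EDC3 and EDC4, while DDX6 and LSM14A hold repressed transcripts in P-bodies. The groups did not overlap for 2 of the 7 decapping genes, Lsm14a and Ddx6 (28.6%, against 27.1% of all genes). Lsm14a stood at 165, 145 and 154 CPM in Ctrl against 114, 114 and 126 CPM in M3-CKO. The M3-CKO libraries were all lower, with a log2 fold change of -0.39 (SE 0.14, edgeR adjusted p = 0.17), or -0.44 (edgeR adjusted p = 0.025) without M3-CKO replicate 3. The helicase gene Ddx6 stood at 549, 554 and 572 CPM in Ctrl against 458, 489 and 455 CPM in M3-CKO. The Ctrl libraries lay close together and above all M3-CKO libraries, with a log2 fold change of -0.26 (SE 0.14, edgeR adjusted p = 0.35). Dcp2 stood at 104, 149 and 133 CPM in Ctrl against 185, 219 and 101 CPM in M3-CKO. M3-CKO replicates 1 and 2 lay above all Ctrl libraries and replicate 3 below them, and the log2 fold change of 0.39 (SE 0.29, edgeR adjusted p = 0.51) became 0.64 (edgeR adjusted p = 0.024) without replicate 3.

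Among the activators, Dcp1a stood at 55.3, 61.1 and 62.3 CPM in Ctrl against 53.8, 56.1 and 36.4 CPM in M3-CKO, with M3-CKO replicate 3 the lowest and a log2 fold change of -0.29 (SE 0.20, edgeR adjusted p = 0.46). Dcp1b, with 62 to 125 counts per library, ranged between 6.95 and 12.7 CPM and had a log2 fold change of 0.36 (SE 0.28, edgeR adjusted p = 0.53). Edc3 ranged between 38.3 and 51.8 CPM and Edc4 between 26.3 and 36.1 CPM, with log2 fold changes of 0.02 and -0.08. After decapping, the cytoplasmic exonuclease XRN1 takes over, with XRN2 as its nuclear counterpart. Xrn1 stood at 59.05, 80.7 and 76.5 CPM in Ctrl against 61.7, 66.04 and 51.1 CPM in M3-CKO and Xrn2 at 31.3, 41.4 and 32.8 CPM in Ctrl against 41.8, 55.5 and 35.3 CPM in M3-CKO. The groups overlapped for both, at log2 fold changes of -0.27 (SE 0.18, edgeR adjusted p = 0.44) and 0.33 (SE 0.22, edgeR adjusted p = 0.44).

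Nonsense-mediated decay depends on the helicase UPF1, its partners UPF2, UPF3A and UPF3B, the kinase SMG1, the endonuclease SMG6 and the adaptor SMG5. None of the 7 genes had groups that did not overlap, against 27.1% of all genes. Smg1 stood at 178, 223 and 205 CPM in Ctrl against 283, 318 and 167 CPM in M3-CKO. M3-CKO replicates 1 and 2 lay above all Ctrl libraries and replicate 3 below them, with log2 fold changes of 0.34 (SE 0.25, edgeR adjusted p = 0.49) with all libraries and 0.57 (edgeR adjusted p = 0.018) without replicate 3. Upf3a stood at 31.3, 27.9 and 24.4 CPM in Ctrl against 20.3, 14.5 and 26.1 CPM in M3-CKO, lower in M3-CKO replicates 1 and 2 than in any Ctrl library. Its value was -0.46 (SE 0.25, edgeR adjusted p = 0.36), or -0.68 (edgeR adjusted p = 0.044) without replicate 3. Smg6 stood at 39.2, 37.9 and 46.96 CPM in Ctrl against 40.1, 47.4 and 18.7 CPM in M3-CKO, where M3-CKO replicate 3 alone lay apart.

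Smg5 stood at 54.3, 86.3 and 65.00 CPM in Ctrl against 53.8, 47.3 and 93.9 CPM in M3-CKO, highest in M3-CKO replicate 3, while M3-CKO replicates 1 and 2 lay below all Ctrl libraries. Smg6 and Smg5 had log2 fold changes of -0.23 (SE 0.32, edgeR adjusted p = 0.75) and -0.08 (SE 0.30, edgeR adjusted p = 0.91), and without M3-CKO replicate 3 they were 0.08 and -0.44. Upf1 ranged between 61.03 and 81.5 CPM and Upf2 between 49.02 and 75.1 CPM, with log2 fold changes of -0.04 and 0.14. Upf3b stood at 32.1, 71.2 and 62.1 CPM in Ctrl against 53.4, 52.8 and 68.7 CPM in M3-CKO, with Ctrl replicate 1 the lowest of the 6 libraries. Its log2 fold change was 0.08 (SE 0.29, edgeR adjusted p = 0.91).

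Paralogs within the machinery were then compared inside each library, where the scaling between libraries cancels. The measure is the log2 ratio of their counts, which shows how they changed relative to each other and not which is more abundant. Of 9 pairs, 5 had groups that did not overlap. No share over all genes was computed for such pairs. In these 5 pairs, Tob1, Tob2, Btg1, Zfp36 and Zfp36l1 had groups without overlap on their own. Btg2, Xrn1, Xrn2, Upf3a and Upf3b did not. The Tob1/Tob2 ratio was 0.04, 0.12 and -0.00095 in Ctrl against 0.81, 0.88 and 0.64 in M3-CKO, a difference of 0.72 between the means that exceeded the spread within either group. The Btg1/Btg2 ratio was -0.09, 0.46 and 0.06 in Ctrl against 0.80, 0.72 and 1.09 in M3-CKO, higher in every M3-CKO library, with a difference of 0.72. The Xrn1/Xrn2 ratio was 0.92, 0.96 and 1.22 in Ctrl against 0.56, 0.25 and 0.53 in M3-CKO, lower in every M3-CKO library, with a difference of -0.58.

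The Zfp36/Zfp36l1 ratio was -2.48, -2.06 and -1.68 in Ctrl against -2.51, -2.63 and -2.90 in M3-CKO. Ctrl replicate 1 and M3-CKO replicate 1 nearly met, and the difference was -0.61. The Upf3a/Upf3b ratio was -0.04, -1.35 and -1.34 in Ctrl against -1.39, -1.86 and -1.40 in M3-CKO, and its difference of -0.64 became -0.20 without Ctrl replicate 1. In a two-sided exact permutation test each of the 5 had p = 0.1, again the floor of the design, and 0.18 after Benjamini-Hochberg adjustment over the 9 pairs. Without M3-CKO replicate 3 the differences were 0.79 for Tob1/Tob2, 0.61 for Btg1/Btg2 and -0.63 for Xrn1/Xrn2. The other 4 pairs (Cnot7/Cnot8, Cnot6/Cnot6l, Dcp1a/Dcp1b and Zfp36l1/Zfp36l2) overlapped, with exact permutation p from 0.2 to 0.7, and Cnot7/Cnot8 changed sign, from -0.18 to 0.21, without M3-CKO replicate 3.

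**Figure D4:**
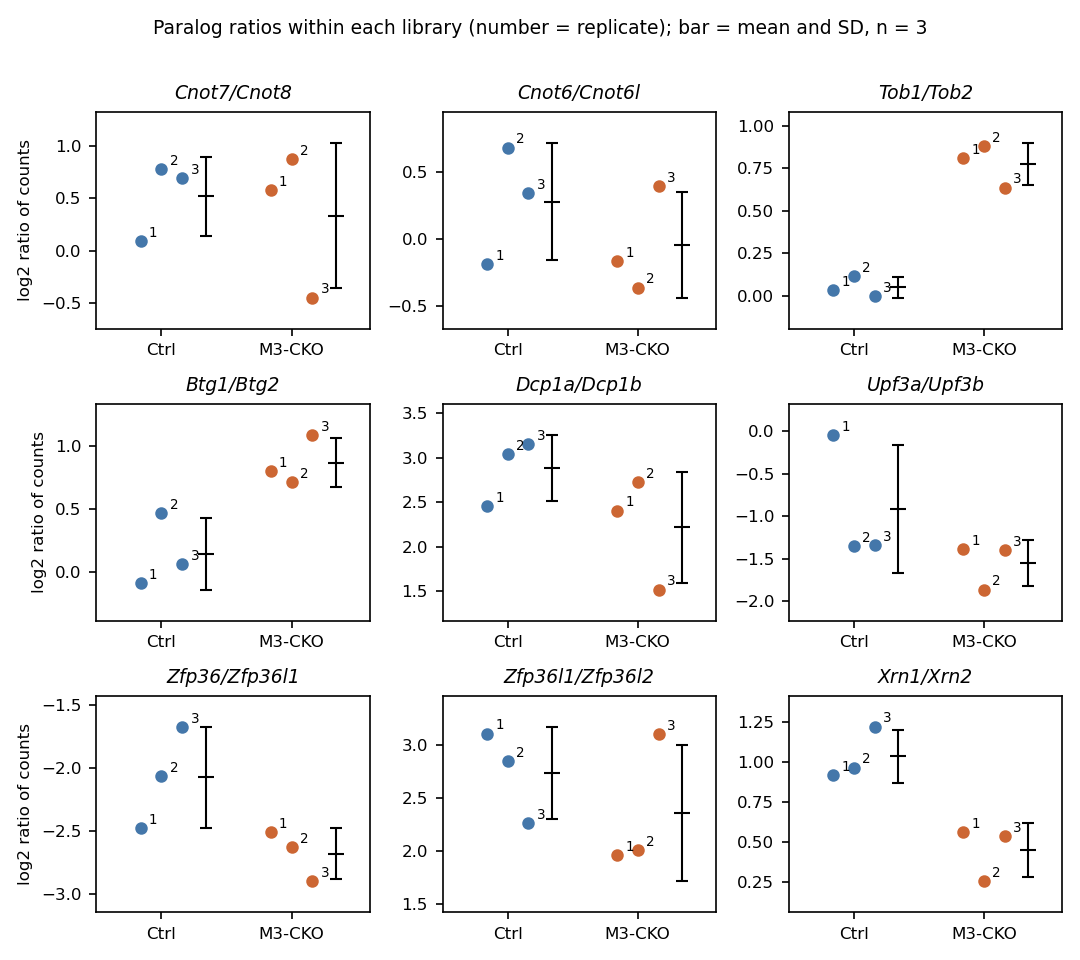
Dots are the log2 ratio of the counts of 2 paralogs in each library, numbered by replicate, for 9 pairs, with Ctrl in blue and M3-CKO in orange, and bars are the mean and SD of 3 libraries. The vertical axes differ between panels. Tob1/Tob2 is at most 0.12 in Ctrl and at least 0.64 in M3-CKO.

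Further genes were read from 10 lists, 7 of decay factors, 2 of transcripts that decay routes are known to cut and 1 of immediate early genes. They held 145 tested genes, of which edgeR called 2 higher and 2 lower, against 2.91% of all genes, and 29 had an unadjusted p under 0.05, against 20.5% of all genes. The called ones were Ythdf2 and Tnf, higher, and Fosb and Ier2, lower, so 1 of the 4, Ythdf2, belongs to the lists of decay factors. With any library other than M3-CKO replicate 3 left out, 0 genes of these lists were called. Without M3-CKO replicate 3, 41 were called, where 25.0% of all genes tested in that fit were called. The 41 include genes outside the 145, which passed the low-count filter in that fit and not with all 6 libraries. Ythdf2, the reader that brings methylated RNA to CCR4-NOT, rose from 121, 112 and 107 CPM in Ctrl to 227, 216 and 184 CPM in M3-CKO, without overlap and with a log2 fold change of 0.89 (SE 0.15, edgeR adjusted p = 0.032). The other 8 genes of its list were not called by edgeR with all libraries. Its paralog Ythdf1 stood at 128, 111 and 119 CPM in Ctrl against 227, 222 and 153 CPM in M3-CKO, also without overlap and with a log2 fold change of 0.75 (SE 0.19, edgeR adjusted p = 0.075), and DESeq2 called it (adjusted p = 0.025). Of the list of 9, 7 had a positive log2 fold change, with a median of 0.39. Without M3-CKO replicate 3, edgeR called 5 of the 9 higher (Ythdf1, Ythdf2, Ythdf3, Rpp38 and Igf2bp3) and 1 lower (Rida), with 0.91 (edgeR adjusted p = 0.0015) for Ythdf1. Over all genes that fit called 13.7% higher and 11.3% lower. Ythdf1, Ythdf3, Rpp38, Igf2bp3, Rida, Ier3, Fos and Scgb3a2 are named here after their values were seen.

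In the list of other deadenylases and tail enzymes, outside the 40 genes, Noct (nocturnin) lay just outside the threshold. Whether its protein acts as a deadenylase is not shown by these data. It stood at 46.2, 39.4 and 49.1 CPM in Ctrl against 139.8, 116 and 66.9 CPM in M3-CKO, without overlap, and had a log2 fold change of 1.26 (SE 0.27, edgeR adjusted p = 0.055). DESeq2 gave an adjusted p of 0.0014, and the value without M3-CKO replicate 3 was 1.51 (edgeR adjusted p = 6.0e-04). Tent4b, a poly(A) polymerase gene that was second by p in that list of 12, had a log2 fold change of 0.30 (SE 0.15, edgeR adjusted p = 0.31). In the list of the RNA exosome, the SKI complex and ribosome rescue, 0 of 18 tested genes were called (2 at an unadjusted p under 0.05) and the median was -0.06. Pelo, which rescues stalled ribosomes, stood at 42.4, 29.4 and 32.6 CPM in Ctrl against 66.8, 61.1 and 62.7 CPM in M3-CKO, without overlap, with a log2 fold change of 0.87 (SE 0.18, edgeR adjusted p = 0.050), just over the threshold. DESeq2 gave an adjusted p of 0.0078, and without M3-CKO replicate 3 it was at 0.87 (edgeR adjusted p = 0.0098). The exosome subunit Exosc1 had a log2 fold change of 0.72 (SE 0.24, edgeR adjusted p = 0.15), or 0.76 (edgeR adjusted p = 0.045) without that library.

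Of 13 tested genes of the LSM ring and decapping activators 0 were called, with 3 at an unadjusted p under 0.05 and a median of 0.04. The lowest p belonged to the decapping enzyme gene Nudt16, at a log2 fold change of 0.68 (SE 0.22, edgeR adjusted p = 0.14) and the decapping cofactor gene Pnrc1, at a log2 fold change of 0.74 (SE 0.24, edgeR adjusted p = 0.14). Both were called without M3-CKO replicate 3, at 0.83 (edgeR adjusted p = 0.013) and 0.97 (edgeR adjusted p = 0.0015). Of 15 further factors of nonsense-mediated decay and the exon junction complex 0 were called, with 1 at an unadjusted p under 0.05, Smg8, at a log2 fold change of 0.53 (SE 0.22, edgeR adjusted p = 0.23), or 0.72 (edgeR adjusted p = 0.0073) without M3-CKO replicate 3. The next was Eif4a3, of the exon junction core, at a log2 fold change of -0.44 (SE 0.24, edgeR adjusted p = 0.35). In the microRNA pathway 0 of 10 genes passed edgeR's test, 1 did so before adjustment, and 9 had a negative log2 fold change, with a median of -0.32, or -0.15 without M3-CKO replicate 3. That 1 gene was Ago1, an Argonaute, which stood at 150.2, 133 and 152 CPM in Ctrl against 109, 97.4 and 81.3 CPM in M3-CKO, without overlap and with a log2 fold change of -0.60 (SE 0.16, edgeR adjusted p = 0.088), or -0.50 (edgeR adjusted p = 0.021) without M3-CKO replicate 3. Tnrc6c, which links Argonaute to CCR4-NOT, had a log2 fold change of 0.52 (SE 0.23, edgeR adjusted p = 0.26), or 0.73 (edgeR adjusted p = 0.0064) without that library. Of 13 other binders of AU-rich and stem-loop elements edgeR called 0, also at an unadjusted p under 0.05 (0 genes), and the lowest p belonged to Pum2, at a log2 fold change of -0.25 (SE 0.14, edgeR adjusted p = 0.34). DESeq2 called 0 of the LSM, exon junction, microRNA and binder lists, and 1 gene each (Pelo and Noct) of the exosome and deadenylase lists.

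Transcripts that these routes are known to cut were read as well. Of 22 tested transcripts with known AU-rich elements 1 rose, against 1.74% of all genes. Of the 22, 16 had a positive log2 fold change and the median was 0.35. Without M3-CKO replicate 3, 7 of the 22 were called higher and 2 lower, against 13.7% and 11.3% of all genes. The one called with all libraries was the cytokine gene Tnf, a classical ZFP36 target. It was not called by limma-voom (limma-voom adjusted p = 0.15). It stood at 4.25, 3.16 and 3.36 CPM in Ctrl against 33.1, 32.8 and 7.31 CPM in M3-CKO. M3-CKO replicates 1 and 2 were far above the Ctrl libraries and replicate 3 less so, with a log2 fold change of 2.76 (SE 0.56, edgeR adjusted p = 0.048). The part of Zfp36 in the Tnf values was not tested. The log2 fold change was negative for 6 of the 22, down to -2.49 for Fos (edgeR adjusted p = 0.082). For Fos it was -2.03 (edgeR adjusted p = 0.0061) without M3-CKO replicate 3. Fos, Ier3 and Myc of this list are also in the immediate early list. Of 20 tested transcripts known to be cut by nonsense-mediated decay 0 were called, 14 had a positive log2 fold change, 4 had an unadjusted p under 0.05 (against 20.5% of all genes) and the median was 0.37 (DESeq2 called 2). The lowest p belonged to the cystine transporter gene Slc7a11, at a log2 fold change of 1.81 (SE 0.38, edgeR adjusted p = 0.050), and to Gadd45b, at a log2 fold change of 1.45 (SE 0.41, edgeR adjusted p = 0.10). Without M3-CKO replicate 3 they were at 2.11 (edgeR adjusted p = 9.6e-04) and 1.82 (edgeR adjusted p = 4.1e-04). In that fit edgeR called 4 of the 20 higher and 1 lower, against 13.7% and 11.3% of all genes. These are steady-state levels, so synthesis and decay of a transcript cannot be told apart, nor can fewer cells of a type and less RNA per cell.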

How the data were processed

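RNA-seq was read for 6 libraries, 3 per group. The deposited values are raw counts per gene, which the authors made with Trim Galore, HISAT2 and featureCounts on build mm39, per the submitters' processing notes. The sources used here do not give the versions, the annotation, the strand setting or the treatment of multiply mapped reads, so counts of overlapping, antisense and near-identical genes are uncertain. Groups and replicate numbers follow the titles. The table gives no gene lengths, so levels are not compared between genes.

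edgeR 4.0.16 in R 4.3.3 (filterByExpr, 13528 genes kept; TMM; glmQLFit and glmQLFTest, two-sided, no covariate) was fitted on the whole table, with Benjamini-Hochberg adjustment over all genes tested and a threshold of 0.05. CPM use total counts times TMM factors, and log2 CPM adds 0.5. The SE is the log2 fold change over the square root of F, and the 95% interval uses the t distribution with the fit's degrees of freedom. Paralog ratios add 0.5 to each count. Steps were tested on simulated data. Alternatives were DESeq2 1.42.0, limma-voom (limma 3.58.1), other scalings and filters, a replicate block, and leaving out each library. The 40 members and the lists were chosen with earlier results of these data known, so no value here is independent support for a pattern seen before. The naming rule gives all 40 members, Mettl3 and, of each list, the called genes (at most 4 per direction) or the 2 with the lowest p; 1 gene so chosen is not reported here. Of list genes, 3 were matched by an older symbol.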

Additional observations from a re-analysis of the deposited data

How the results depend on the processing

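Of the 40 members, 0 were called under DESeq2 size factors, library size alone, a stricter filter on low counts, no such filter, limma-voom and the replicate block. The DESeq2 test called 2, and leaving out 1 library gave 0 to 8, the 8 without M3-CKO replicate 3. Over all genes the count of 393 became 1200 with DESeq2, 740 without a low-count filter, 20 with the replicate block and 0 to 3483 when 1 library was left out (0, 1 and 0 without Ctrl replicate 1, 2 and 3, 14 and 18 without M3-CKO replicate 1 and 2, and 3483 without M3-CKO replicate 3). For the 10 lists of decay factors, their target transcripts and immediate early genes, the count of 4 became 7 with library size alone, 13 with DESeq2, 10 without a low-count filter, 0 with the replicate block and 0 to 41 with 1 library left out. The Mettl3 log2 fold change ranged from -0.78 to -0.62 with 1 library left out and passed the test without M3-CKO replicate 3 (-0.67, edgeR adjusted p = 0.043).

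Sign changes touched 14 members, and 26 kept their sign in every alternative. Zfp36l2 was -0.15 with limma-voom and -0.10 with the replicate block. With 1 library left out the log2 fold changes ranged from -0.087 to 0.19 for Cnot2, -0.053 to 0.34 for Cnot7, -0.37 to 0.063 for Cnot10, -0.32 to 0.26 for Cnot11, -0.20 to 0.22 for Btg2, -0.044 to 0.30 for Pan2, -0.045 to 0.14 for Edc3, -0.22 to 0.023 for Edc4, -0.18 to 0.053 for Upf1, -0.19 to 0.30 for Upf3b, -0.44 to 0.12 for Smg5, -0.48 to 0.076 for Smg6, -0.43 to 0.063 for Pabpc1 and -0.22 to 0.47 for Zfp36l2. The Cnot7/Cnot8 ratio difference ranged from -0.45 to 0.21. The cause of these changes was not tested.

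Replicate numbers were not taken as pairs: the deviations of same-numbered libraries from their group means correlated at -0.02, 0.02 and -0.11 across genes. Limits: with 3 libraries per group 1 library decides most calls, M3-CKO replicate 3 stands apart for reasons the labels do not give, and the 95% interval of a member, which reaches 0.48 (median) on the log2 scale to either side, sets the size of difference that could be seen. M3-CKO replicates 1 and 2 differed by more than sampling noise (chi-square over degrees of freedom 6.14, against 11.3 to 24.2 for Ctrl pairs) and were kept as 2 replicates.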
